A study of Mus musculus with 10 samples.

Results

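In all, 10 genes of bone morphogenetic protein (BMP) and activin signalling were followed through the cells of the aged mouse inner ear. They comprise the ligand genes Bmp2, Bmp4, Bmp6, Bmp7 and Inhba, the antagonist gene Fst (follistatin) and the target genes Id1, Id2, Id3 and Id4. The members were chosen by symbol, and each of the 10 symbols matched a single feature of the 32285 in the gene tables, so all 10 are accounted for.

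BMPs are secreted dimers that bind type I and type II serine/threonine kinase receptors, and the type I receptors phosphorylate SMAD1, SMAD5 and SMAD9, which enter the nucleus with SMAD4. Genes of the Id family are well known targets of these SMADs. Id proteins carry a helix-loop-helix but no DNA-binding domain, pair with E proteins and so hold back basic helix-loop-helix factors such as ATOH1, the factor that specifies hair cells (HCs). Inhba encodes the subunit of activin A, a related ligand that signals through SMAD2 and SMAD3. Follistatin binds activin tightly and some BMPs less tightly, and in the developing cochlea activin and follistatin form opposing gradients along the duct.

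Single-cell RNA sequencing was carried out on the auditory organ (cochlea) and the balance organs (vestibule) of wild-type CBA/J mice at 22 months of age. In this inbred strain, changes of the inner ear with age come late in life. The study reported raised hearing thresholds and loss of cochlear HCs in its old mice. No mouse was treated or mutant, both organs were dissociated with collagenase, and each replicate pooled the tissue of 7 to 8 mice, so a library is a pool and not an animal. The organs were compared over replicates 1, 3, 4 and 5, with n = 4 libraries each, and the p-values below measure the spread between these pools. Replicate 2 held the cells of replicate 1 again, with 1313 of 1313 cochlear and 1633 of 1641 vestibular barcodes shared, and was not counted.

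Libraries held 2592425 to 26974948 UMIs (unique molecular identifiers, 1 per captured transcript). The filters kept 571, 5070, 695 and 936 cochlear cells and 867, 5438, 2448 and 1671 vestibular cells in replicates 1, 3, 4 and 5, which replicate 3 therefore dominates. Levels are CPM, in which the summed counts of a class in each library are scaled to a common total, and are given as mean ± SD over libraries with at least 5 such cells. Cells were clustered without the 10 genes and classes were named "-like" from marker genes. Clusters stay unnamed and are called by leading genes where they held under 3 markers of any list, mixed the markers of several classes, or had leading genes of another list. Classes are described next to each other without a test, since clusters were drawn from the same cells.

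All positions are on mouse genome build GRCm38, annotated by GENCODE M21. Bmp2 lies on the plus strand at chr2:133552159-133562885, Bmp4 on the minus strand at chr14:46383520-46390669, Bmp6 on the plus strand at chr13:38345107-38500302, Bmp7 on the minus strand at chr2:172868012-172940321 and Inhba on the plus strand at chr13:16011851-16031621. Fst lies on the minus strand at chr13:114452290-114458951. Id1 lies on the plus strand at chr2:152736251-152737410, Id2 on the minus strand at chr12:25093799-25097140, Id3 on the plus strand at chr4:136143497-136145755 and Id4 on the plus strand at chr13:48261228-48266026. Bmp4 overlaps the antisense gene Gm15222 (plus strand, chr14:46387519-46389282), and reads of the pair cannot be told apart where strand was not used in counting.

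The 250 bases before the start of Bmp4 and of Id4 are shown because Bmp4 was concentrated in 1 small population and Id4 was high in HCs in the data below. They were taken from RefSeq on GRCm38.p6, which had an entry for 6 of the 10 genes (Bmp4, Bmp6, Inhba, Id2, Id3 and Id4). Capitals mark GGCGCC, a palindrome known as a SMAD1 and SMAD5 element. Among all 32851 windows of this length, 3149 (9.59%) held it, and 13861 (42.2%) held GTCTG, a core bound by SMAD3 and SMAD4, on either strand.
Bmp4, chr14:46390670-46390919, minus strand: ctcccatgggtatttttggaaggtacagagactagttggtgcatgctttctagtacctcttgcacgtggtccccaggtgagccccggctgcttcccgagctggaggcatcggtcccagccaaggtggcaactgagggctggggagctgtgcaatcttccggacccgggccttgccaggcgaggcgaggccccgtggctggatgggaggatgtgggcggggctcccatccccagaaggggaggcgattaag
Id4, chr13:48260866-48261115, plus strand: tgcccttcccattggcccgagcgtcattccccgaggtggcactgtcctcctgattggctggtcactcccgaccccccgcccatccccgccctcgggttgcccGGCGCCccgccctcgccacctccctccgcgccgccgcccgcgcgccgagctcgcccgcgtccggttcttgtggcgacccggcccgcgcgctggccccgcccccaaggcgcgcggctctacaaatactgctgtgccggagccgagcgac
The windows were rich in G and C, at 63.2% for Bmp4 and 75.6% for Id4. GGCGCC was found once in Id4 and once in Id2, and GTCTG was found 2 times in Id3 and once in Bmp6. Neither set of letters was in the Bmp4 window.

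The ligands did not share 1 leading population. Bmp2 was highest in type I-like vestibular HCs, the flask-shaped receptors wrapped by a calyx ending. Its level there was 696, 437, 382 and 496 CPM in replicates 1, 3, 4 and 5 (503 ± 137). All 4 libraries lay above every library of the next population, an unnamed vestibular cluster with Tectb and Gad1 among its leading genes (199 ± 93.8 CPM), and cochlear fibroblast-like cells followed at 104 ± 101 CPM. The Tectb and Gad1 cluster carried 7 of 10 supporting cell markers together with 4 of 6 HC markers and 4 of 6 neuron markers at a median of 11337 UMIs per cell, no doublet caller was run, and the part of HC RNA in its Bmp2 level was not tested. A Bmp2 UMI was found in 66.4% of type I-like HCs (exact 95% interval 63.9 to 68.8%, counting error only) and in 33.1% after each cell was thinned to 1000 UMIs. Macrophage-like cells of the same libraries, used here as a reference for free RNA, gave 5.88% of cells and 2.24% after thinning, at a median of 2682 UMIs per cell. Their own expression of the members was not tested, so this reference may lie above the level that free RNA leaves. Mean Id2, for example, was 64.1 CPM in vestibular macrophage-like cells and 6.88 CPM in vestibular fibrocytes and fibroblasts.

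**Figure D1:**
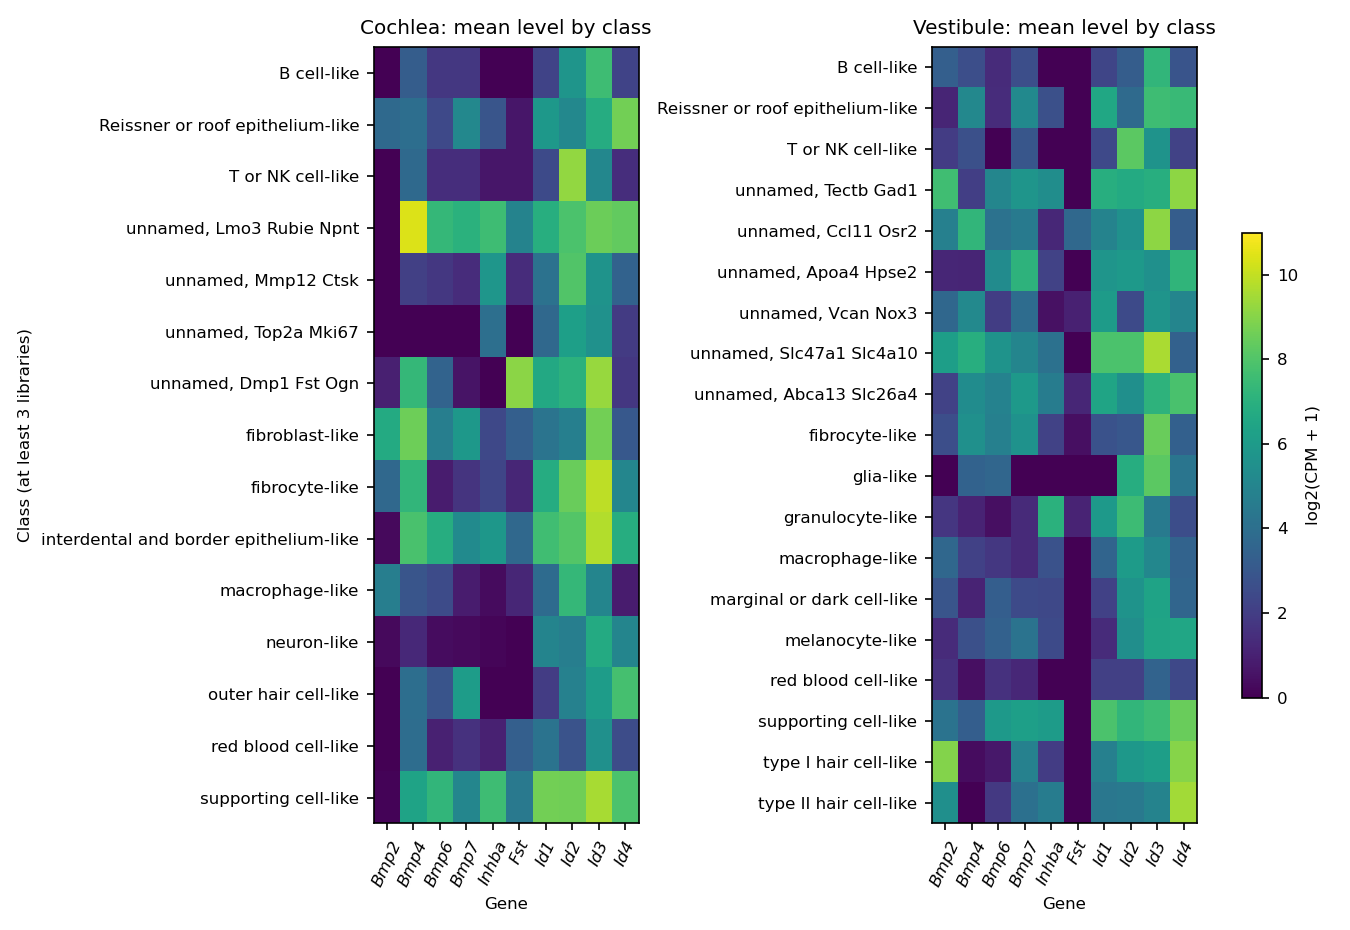
Mean level of each gene (columns) in each class or unnamed cluster with a level in at least 3 libraries (rows), for cochlea and vestibule. Colour gives log2(CPM + 1) of the mean over libraries, and the brightest Bmp4 cell is the cochlear cluster with Lmo3, Rubie and Npnt at a mean of 1369 CPM.

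Bmp4 was concentrated in a small cochlear cluster of 114 cells led by Lmo3, Rubie, Npnt and Ucma. It reached 1853, 1081 and 1173 CPM in replicates 1, 3 and 4 (1369 ± 422, n = 3), from 10, 70 and 31 cells. Replicate 5 held 3 of these cells, too few for a level. Every one of the 3 libraries lay above cochlear fibroblast-like cells, at 399, 272, 522 and 315.5 CPM (377 ± 110). Interdental and border epithelium-like cells, an epithelial class beside the organ of Corti, held 274, 210.1, 236 and 204 CPM (231 ± 31.9). A Bmp4 UMI was present in 82.5% of the cells of the Lmo3 cluster (exact interval 74.2 to 88.9%) and in 59.6% after thinning, at a median of 3591.5 UMIs. The share in cochlear macrophage-like cells was 3.09% and 1.03% after thinning, at a median of 2399.5 UMIs. Rubie, a non-coding RNA named for lying upstream of Bmp4 and being expressed in the inner ear, lies 177593 bases from Bmp4 on GRCm38.

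The same Lmo3 cluster also led or nearly led for 3 further ligands. Bmp6 was 240, 112 and 128 CPM there (160 ± 69.7, n = 3), against 152 ± 75.1 CPM in cochlear supporting cell-like cells (SCs) and 113 ± 22.8 CPM in interdental and border epithelium-like cells. These 3 populations overlapped, and the border cells in turn lay above vestibular SCs (59.5 ± 18.4 CPM). Bmp7 was 174, 101 and 115 CPM in the Lmo3 cluster (130.1 ± 39.0) and 155, 114, 136 and 138 CPM (136 ± 17.0) in an unnamed vestibular cluster led by Apoa4 and Hpse2. The 2 clusters overlapped and lay above vestibular SCs at 72.1 ± 10.0 CPM. Replicate 1, the highest library of the Lmo3 cluster for Bmp6 and Bmp7, held 10 of its cells.

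Inhba was highest in cochlear SCs, at 194, 134, 206 and 238 CPM (193 ± 43.4), with the Lmo3 cluster alongside at 192 ± 75.5 CPM. The ranges of this pair overlapped, and the share of cells after thinning had the other order, 12.9% in cochlear SCs against 20.2% in the Lmo3 cluster. Within cochlear SCs, Inhba was 268 ± 77.4 CPM in a cluster with Aqp4 and Tnnt2, 139 CPM in a cluster with Slitrk6 and 13.9 CPM in a cluster with Tectb and Fgfr3. Bmp4 followed the same order over these 3 clusters, at 134, 30.3 and 0.685 CPM. Vestibular granulocyte-like cells held 271, 76.9, 98.5 and 65.2 CPM of Inhba (128 ± 96.6), a mean that rests on replicate 1.

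Fst was found almost only in the cochlea, with 515 UMIs over all cochlear cells kept and 30 over all vestibular cells. Its highest level was in a cochlear stromal cluster of 373 cells with Dmp1, Cemip and Ogn, at 1158, 412, 262 and 326 CPM (539 ± 417). Replicate 1 raised this mean, which was 333 CPM without it. Each library of the Dmp1 cluster lay above the Lmo3 cluster (28.9 ± 25.1 CPM) and cochlear SCs (21.0 CPM). A Fst UMI was found in 29.5% of the cells of the Dmp1 cluster (exact interval 24.9 to 34.4%) and in 21.7% after thinning, against 1.03% of cochlear macrophage-like cells. The highest levels of activin subunit and antagonist were thus in different cochlear populations.

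**Figure D2:**
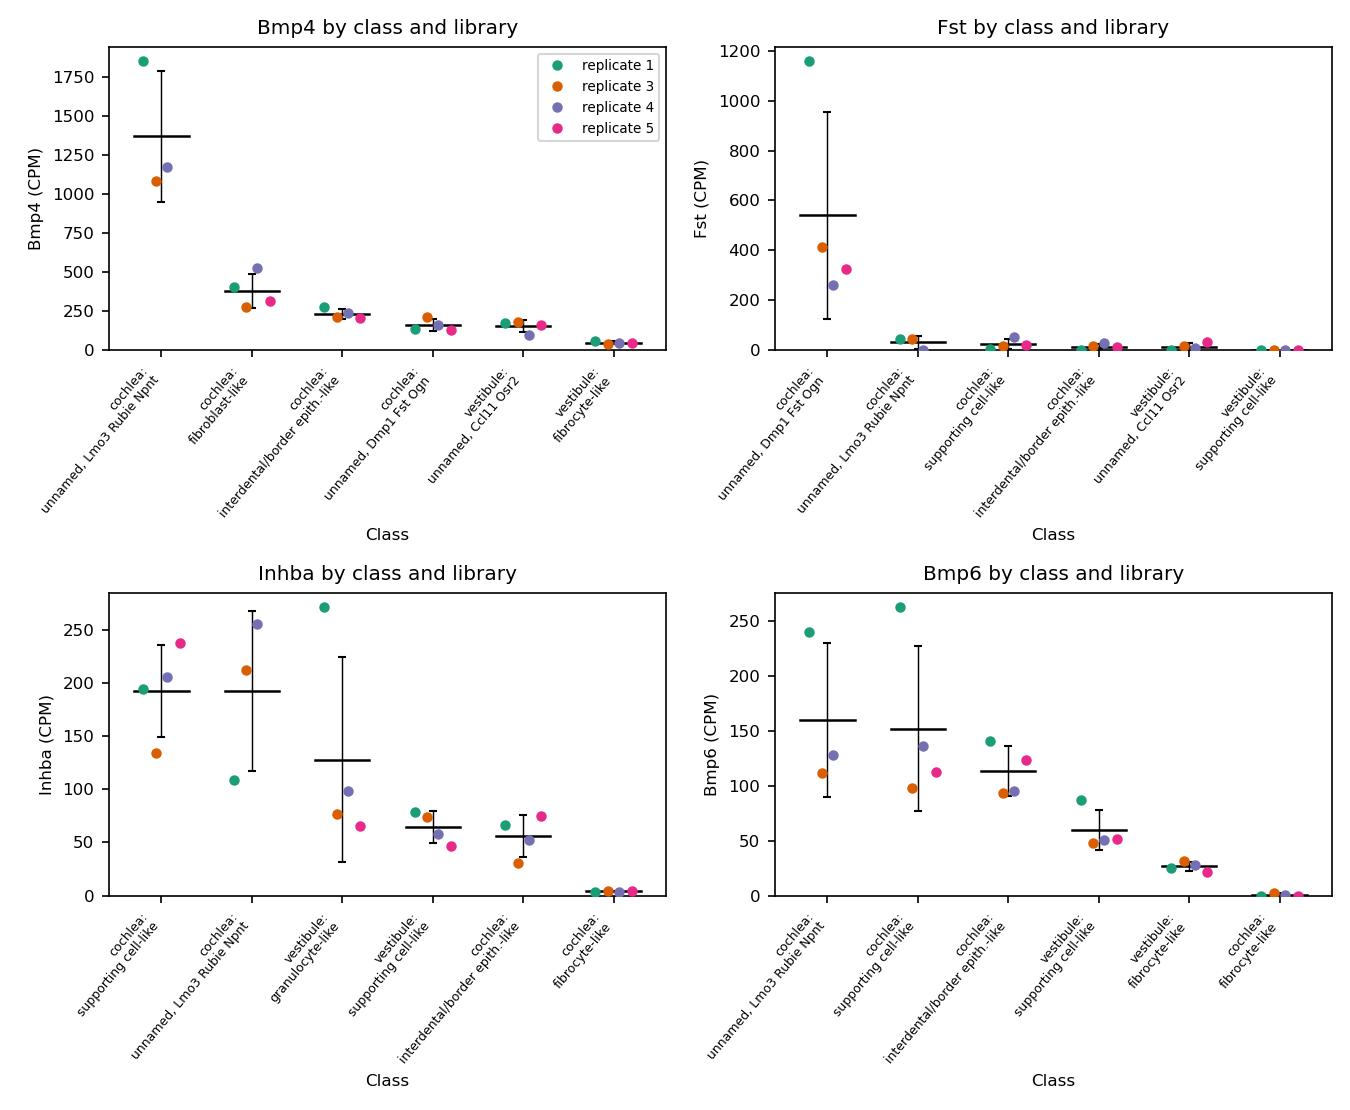
Levels of Bmp4, Fst, Inhba and Bmp6 (y axis, CPM) in 6 classes each, 1 point per library coloured by replicate, with a bar at the mean and whiskers of 1 SD. The Lmo3 cluster stands apart for Bmp4 at 1081 to 1853 CPM and the Dmp1 cluster for Fst at 262 to 1158 CPM, while the leading classes of Inhba and Bmp6 overlap.

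The 4 Id genes did not share a leading class. Id1, a target of BMP signals in many tissues, was highest in cochlear SCs at 321, 511, 495 and 283 CPM (403 ± 118), which overlapped an unnamed vestibular cluster with Slc47a1 (236 CPM) and vestibular SCs (236 ± 38.5 CPM). Id2, which innate lymphoid and natural killer cells need for their development, was highest in cochlear T or NK cell-like cells at 550, 423, 664 and 735 CPM (593 ± 136). Cochlear SCs followed with 395 ± 112 CPM and cochlear fibrocyte-like cells with 355 ± 103 CPM. An Id2 UMI was found in 46.9% of the cochlear T or NK cell-like cells and 34.6% after thinning, against 19.1% of macrophage-like cells before thinning.

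Id3 was high in several classes of both organs. Cochlear fibrocyte-like cells, the collagen-rich cells of the spiral ligament, held 832, 942, 1185 and 890 CPM (962 ± 155). Interdental and border epithelium-like cells held 840.0 ± 60.0 CPM, the vestibular Slc47a1 cluster 766 ± 215 CPM and cochlear SCs 764 ± 127 CPM, and all of these ranges overlapped the next.

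Id4 was instead highest in vestibular HCs. Type II-like HCs, which have bouton endings, held 971, 693, 630.5 and 589 CPM (721 ± 172), and an Id4 UMI was found in 86.3% of them, against 3.08% of vestibular macrophage-like cells. The Tectb and Gad1 cluster of the vestibule, with its mixed HC and supporting cell markers, followed with 562 ± 76.8 CPM and type I-like HCs with 676, 511, 433 and 424 CPM (511 ± 117). Cochlear Reissner or roof epithelium-like cells were the highest cochlear class, with 399.9 ± 61.2 CPM.

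Vestibular HCs differed among themselves in both Bmp2 and Id4. Type I-like HCs, 1437 cells, fell into 4 subclusters. Bmp2 was 861, 471, 411 and 498 CPM in the first of them (578 cells), 653, 490, 412 and 635 CPM in the second (368 cells) and 765, 518, 274 and 853 CPM in the fourth (224 cells). In the third subcluster (267 cells), which carried Ocm and Calb1, markers of the striola or central zone, it was 336, 238, 247 and 274 CPM (274 ± 44.2). The striolar values lay below those of the first and second subclusters in every library and overlapped those of the fourth.

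Type II-like HCs (219 cells) held 75.4, 16.1, 57.9 and 22.4 CPM of Bmp2 (42.9 ± 28.4). All 4 values lay below every type I-like value. The share of type II-like cells with a Bmp2 UMI was 5.48% (exact interval 2.86 to 9.38%) and 1.37% after thinning, at or below the macrophage-like reference of 5.88% and 2.24%. The level in CPM had the other order, since vestibular macrophage-like cells held 0, 14.5, 22.2 and 9.77 CPM (11.6 ± 9.29), with overlapping ranges. No order of type II-like HCs against this reference is read. A further 62 HCs of no assigned type, with Zp3, Slc8a1 and Calcrl, held no Bmp2 UMI in any library. The exact interval allows up to 5.78% of such cells to hold a captured UMI, which does not limit the share that express the gene. Another 59 HCs of no type with Myh4 and Tppp held 1006 CPM, but 55 of these cells came from replicate 3, which gave the only level.

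Id4 followed another order in these subclusters. The cells with Zp3 and no Bmp2 held 1361, 889, 570 and 596 CPM of Id4 (854 ± 368), the type II-like cells 721 ± 172 CPM and the fourth type I-like subcluster 308 CPM. Ranges of the first 2 overlapped. Id3 was among the leading genes of the first type I-like subcluster (578 cells) against the other vestibular HCs.

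**Figure D3:**
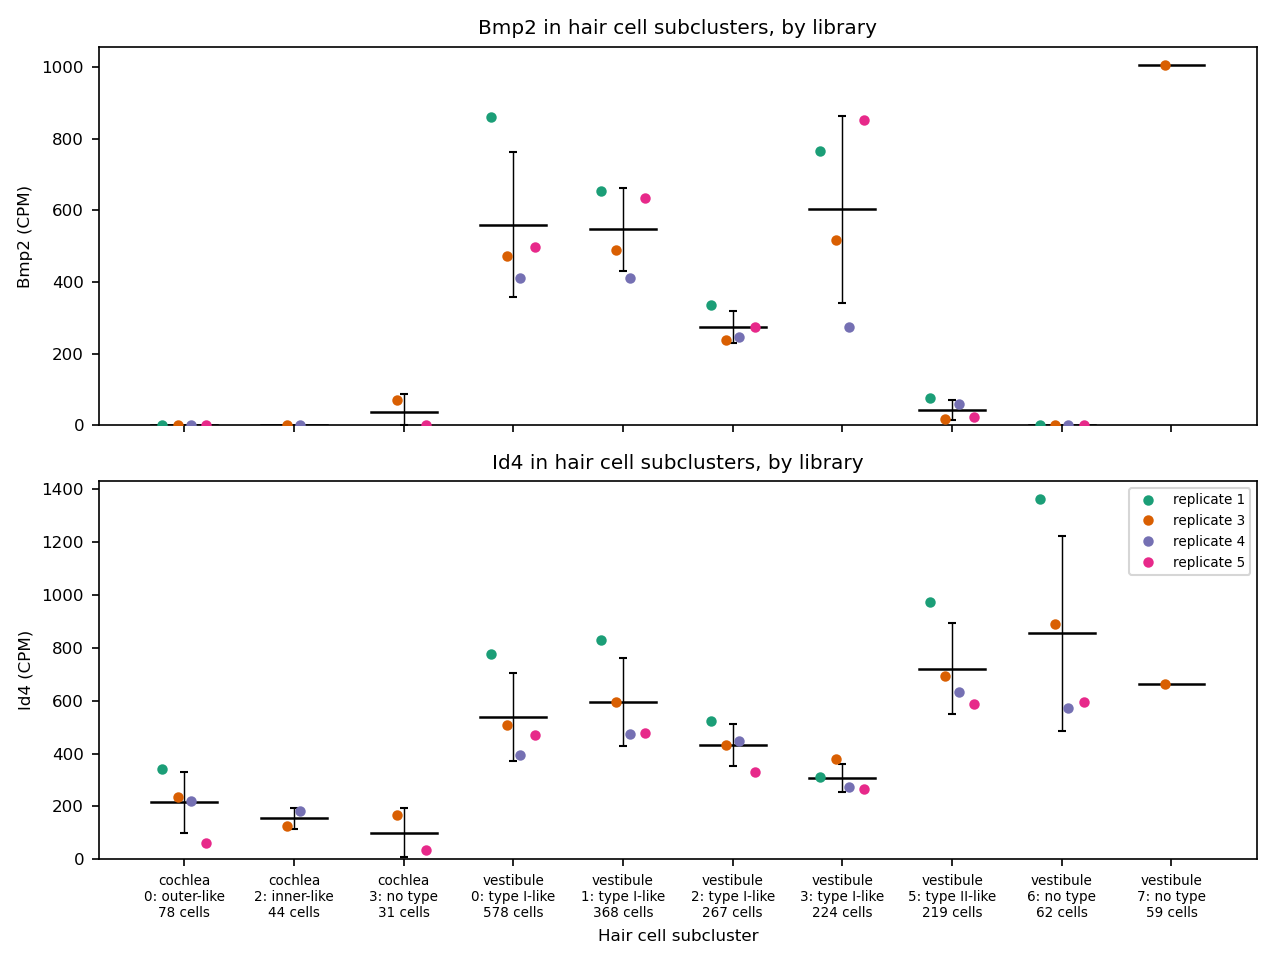
Levels of Bmp2 and Id4 (y axis, CPM) in HC subclusters of cochlea and vestibule, 1 point per library with at least 5 cells, a bar at the mean and whiskers of 1 SD. Bmp2 is high in the 4 type I-like subclusters (238 to 861 CPM), low in type II-like cells (16.1 to 75.4 CPM) and at 0 in the subcluster of 62 cells, whereas Id4 is present in all vestibular subclusters.

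Cochlear HCs were few, with 26, 81, 14 and 32 cells and 771670 UMIs in all. Of these, 44 were inner HC-like (the sound-sensing cells, 33 of them from replicate 3), 78 outer HC-like (the electromotile amplifier cells) and 31 of no type. Id1 was found in 77.3% of inner HC-like cells (exact interval 62.2 to 88.5%) at 169 and 118 CPM in replicates 3 and 4, the only libraries with at least 5 such cells. In outer HC-like cells Id1 was found in 1.28% of cells (exact interval 0.0325 to 6.94%) at 0, 11.3, 0 and 0 CPM. After thinning the shares were 11.4% and 0%, with medians of 10366 and 2644 UMIs per cell before thinning. Cochlear macrophage-like cells gave an Id1 share of 3.35% and 1.80% after thinning, at a median of 2399.5 UMIs, so the outer HC-like share does not lie above this reference.

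Id3 was 169 and 262 CPM in inner HC-like cells and 95.7, 45.1, 0 and 127 CPM in outer HC-like cells, with thinned shares of 18.2% and 6.41%. Cochlear macrophage-like cells held 47.0, 60.4, 0 and 16.1 CPM of Id3 and a thinned share of 3.87%, and the outer HC-like levels overlapped these. Id4 overlapped between the types, at 126 and 183 CPM in inner HC-like cells against 342, 237, 219 and 63.6 CPM in outer HC-like cells. Subclusters in which HC and SC markers (69 cochlear cells, with Otog and Otogl, median 15664 UMIs) or HC and fibrocyte markers (223 vestibular cells, with Coch and Otos, median 1405 UMIs) were found together were set aside, and no doublet caller was run.

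The organs were then compared within each class by edgeR's quasi-likelihood test on summed UMIs, with Benjamini-Hochberg adjustment over all genes tested and a threshold of 0.05. Fold changes are log2 of cochlea over vestibule, ± SE. They come from the fit, which scales the libraries by its own factors, so they can differ from the ratio of the mean CPM. A class name covers partly different cells in each organ, which cannot be told apart from a change within a cell.

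In HCs, Bmp2 and Id4 were lower and Id1 and Id3 higher in the cochlea, 2 of the 6 members tested in each direction. Among all 7681 genes tested in HCs, 12.7% were called higher and 18.0% lower in the cochlea. The median log2 fold change of the 6 members was 0.39, beside −0.06 over all genes. The other 4 members had too few UMIs for the test, with 6 against 3 for Bmp4, 6 against 8 for Bmp6, 9 against 36 for Inhba and none in either organ for Fst.

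Bmp2 was 0, 6.58, 0 and 0 CPM in cochlear HCs, from 3 UMIs, and 574, 424, 320 and 391 CPM in vestibular HCs, from 3059 UMIs. The groups were far apart, at a log2 fold change of −6.69 ± 0.47 (edgeR adjusted p = 2.53e-10). All 3 cochlear UMIs came from replicate 3, and without it the cochlear HCs held none, so that the fitted value of −11.86 then depends on the prior count. Id4 was 326, 151, 191 and 102 CPM in cochlear HCs and 760, 571, 464 and 462 CPM in vestibular HCs. These ranges did not overlap, at −1.60 ± 0.28 (edgeR adjusted p = 7.59e-05).

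Id1 was 36.2, 127, 85.7 and 70.4 CPM in cochlear HCs against 29.9, 26.3, 26.0 and 13.9 CPM in vestibular HCs, at a log2 fold change of 2.03 ± 0.31 (edgeR adjusted p = 1.63e-05). Id3 was 109, 136, 190.5 and 219 CPM against 53.5, 57.3, 80.6 and 53.5 CPM, at 1.42 ± 0.23 (edgeR adjusted p = 3.72e-05). Cochlear libraries lay above all vestibular libraries for both genes, but both calls rested on the inner HC-like cells. Without these cells the edgeR values were −0.30 ± 0.66 for Id1 (adjusted p = 0.816) and 0.41 ± 0.39 for Id3 (adjusted p = 0.515), while Bmp2 and Id4 stayed lower in the cochlea, at −5.43 ± 0.54 (adjusted p = 1.15e-09) and −1.46 ± 0.32 (adjusted p = 7.56e-04).

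The remaining members overlapped between cochlear and vestibular HCs. Bmp7 was 12.1, 26.3, 47.6 and 39.1 CPM against 37.4, 24.4, 20.45 and 21.3 CPM, at 0.34 ± 0.37 (edgeR adjusted p = 0.551). Id2 was 60.4, 68.0, 38.1 and 70.4 CPM against 72.2, 47.4, 40.3 and 36.7 CPM, at 0.45 ± 0.30 (edgeR adjusted p = 0.284).

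Of the other 53 pathway genes, 16 were tested in HCs, with 2 called higher and 1 lower. The type I receptor gene Bmpr1b was 96.6, 76.8, 76.2 and 23.5 CPM in cochlear HCs against 1.25, 2.19, 2.48 and 2.20 CPM, at 4.97 ± 0.41 (edgeR adjusted p = 2.84e-09), so the organs did not overlap. Its relative Bmpr1a was 57.7 CPM on average against 37.2 CPM, with overlapping ranges, at 0.81 ± 0.31 (edgeR adjusted p = 0.0484). Smad7, an inhibitor of the pathway, was lower in the cochlea, at −0.70 ± 0.25 (edgeR adjusted p = 0.0375).

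**Figure D4:**
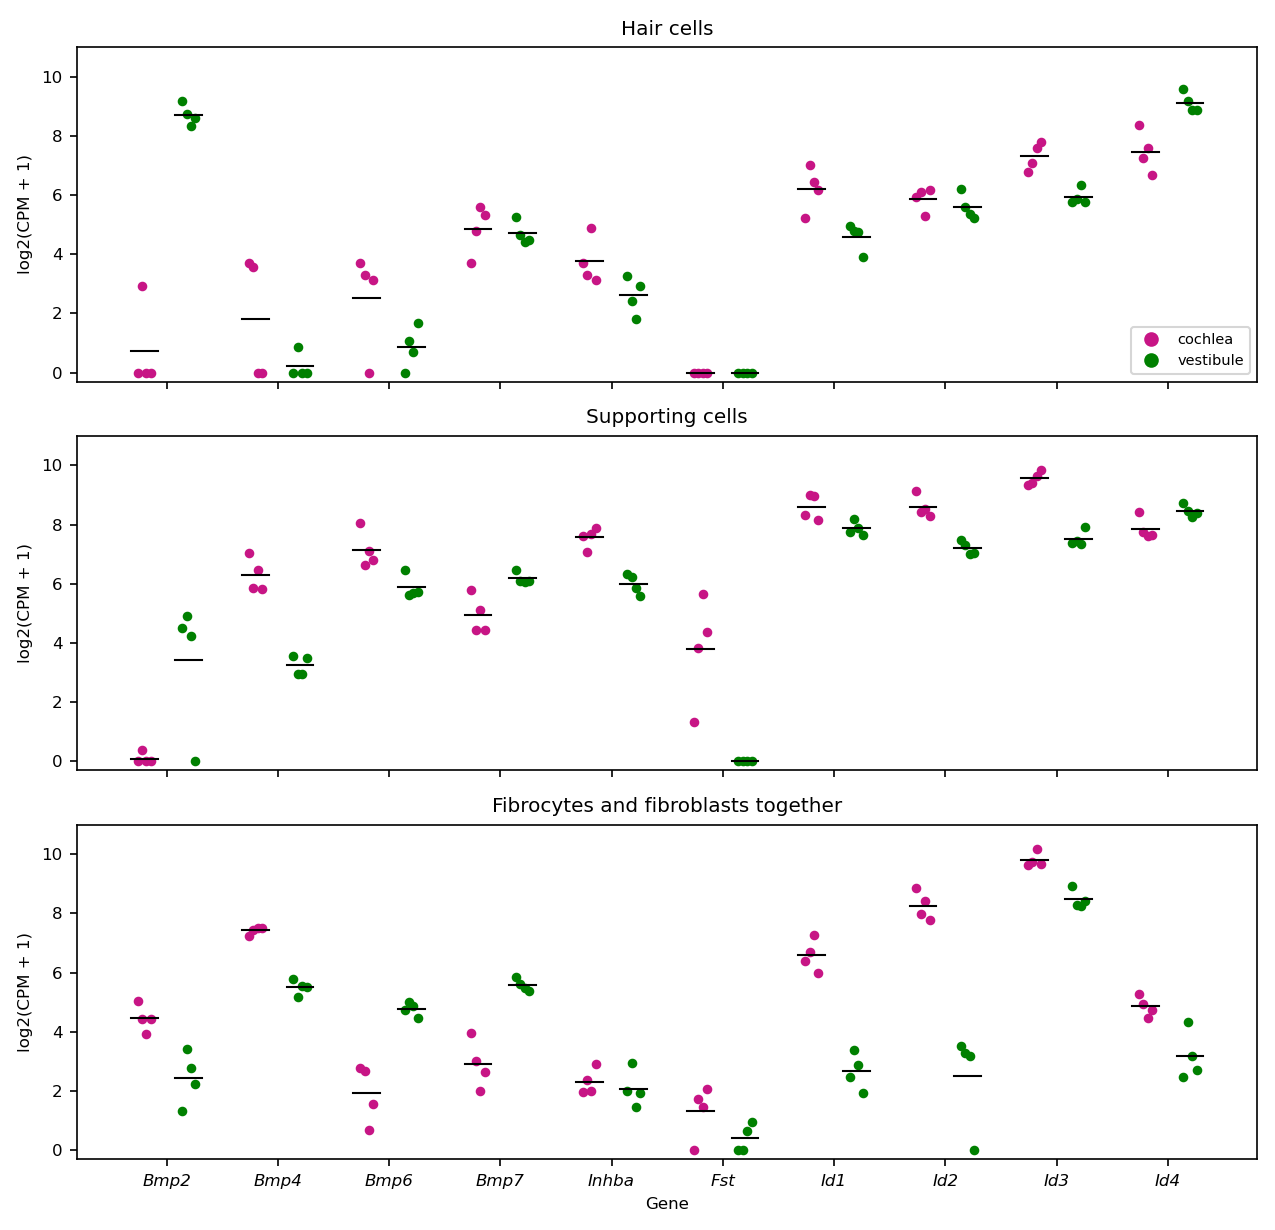
Levels of the 10 genes in HCs, SCs and fibrocytes with fibroblasts, as log2(CPM + 1), 1 point per library and a bar at the mean of the points, cochlea in magenta and vestibule in green. The organs are widest apart for Bmp2 in HCs (0 to 6.58 against 320 to 574 CPM) and for Id2 in fibrocytes and fibroblasts (218 to 460 against 0 to 10.5 CPM).

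In SCs, 6 of 8 members tested were higher in the cochlea (Bmp4, Bmp6, Inhba, Id1, Id2 and Id3) and 1, Bmp7, was lower. Among all 8090 genes tested in SCs, 13.2% were called higher and 16.1% lower. The median log2 fold change of the 8 members was 1.47, beside 0.02 over all genes. The cochlear cells were 188, 627, 133 and 188 per library and the vestibular cells 124, 209, 164 and 57. The unnamed vestibular Tectb and Gad1 cluster (275 cells), with its mixed markers, was not among them. A fit that included it was not run.

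Bmp4 was 131, 57.0, 88.4 and 55.5 CPM in cochlear SCs against 10.9, 6.73, 6.65 and 10.4 CPM in vestibular SCs, at 3.41 ± 0.37 (edgeR adjusted p = 4.72e-07). Inhba was 194, 134, 206 and 238 CPM against 78.9, 74.05, 57.7 and 46.6 CPM, at 1.64 ± 0.23 (edgeR adjusted p = 1.06e-05). Bmp6 was 262, 97.8, 136 and 112 CPM against 87.1, 48.2, 51.0 and 51.8 CPM, at 1.44 ± 0.29 (edgeR adjusted p = 5.75e-04). Every cochlear library lay above every vestibular library for these 3 ligands. The cochlear class was not uniform. Its cluster with Tectb and Fgfr3, described above, had Bmp4 and Inhba levels below the means of vestibular SCs. A fit by SC cluster was not run.

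Bmp7 went the other way without overlap, at 54.2, 20.7, 33.5 and 20.9 CPM in cochlear SCs against 87.1, 67.3, 66.5 and 67.3 CPM, a log2 fold change of −1.14 ± 0.27 (edgeR adjusted p = 0.00299). Bmp2 had 1 UMI of 5884519 in cochlear SCs and 42 of 1902713 in vestibular SCs (21.8, 29.2, 17.7 and 0 CPM), and was under the filter for the test. It passed the filter when cochlear replicate 1, 3, 4 or 5 or vestibular replicate 5 was left out, at −6.72 to −5.82. It passed through the vestibular libraries alone, so these fits are not read as a test. Vestibular macrophage-like cells held 0, 14.5, 22.2 and 9.77 CPM of Bmp2, which overlapped the vestibular SC values. Free RNA was not subtracted, and its part in the SC level of Bmp2 was not tested. Fst was 1.51, 13.2, 49.3 and 19.9 CPM in cochlear SCs (115 UMIs) and had no UMI in vestibular SCs. Against a floor of 3 counts over the vestibular group, Fst was at least 12.4-fold higher in the cochlea, and it had too few UMIs for the test.

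Among the Id genes, Id3 was 645, 683, 802 and 926 CPM in cochlear SCs against 166, 173, 162 and 243 CPM, at 2.17 ± 0.23 (edgeR adjusted p = 2.65e-07). Id2 was 559, 346, 365 and 309 CPM against 177, 157, 129 and 129.5 CPM, at 1.51 ± 0.22 (edgeR adjusted p = 1.46e-05). Neither gene overlapped between organs. Id1 was 321, 511, 495 and 283 CPM against 215, 289, 237 and 202 CPM, at 0.87 ± 0.24 (edgeR adjusted p = 0.00767), with 1 cochlear library inside the vestibular range.

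Id4 did not pass the test in SCs, at 343, 214, 196 and 199 CPM in the cochlea against 427, 354.5, 306 and 331.5 CPM, a log2 fold change of −0.47 ± 0.21 (edgeR adjusted p = 0.0984). Cochlear replicate 1 lay inside the vestibular range. Without it the value was −0.64 (edgeR adjusted p = 0.00833), and with the replicate number as a block it was −0.49 (edgeR adjusted p = 0.00743).

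The pathway list gave 7 genes higher and 6 lower of 25 tested in SCs. Gdf6, another BMP family ligand, was 214, 66.4, 67.9 and 49.2 CPM in cochlear SCs and had no UMI in vestibular SCs, at least 51.1-fold higher against the same floor of 3 counts over the group. The BMP antagonist gene Chrdl1 (27.1 against 0.56 CPM on average, log2 fold change 4.70 ± 0.58, edgeR adjusted p = 2.29e-06) and the inhibitory SMAD gene Smad6 (43.3 against 7.82 CPM, 2.20 ± 0.42, edgeR adjusted p = 4.17e-04) were also higher in the cochlea. The lower genes with the largest change were Fstl1, a follistatin-like secreted protein (5.04 against 94.2 CPM, −4.04 ± 0.32), Tcf4, an E protein partner of Id proteins (143 against 857 CPM, −2.49 ± 0.29), and the BMP co-receptor gene Rgmb (22.4 against 81.9 CPM, −1.83 ± 0.27). Their edgeR adjusted p-values were 5.37e-09, 1.20e-06 and 1.87e-05.

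Fibrocyte-like and fibroblast-like cells were summed, with 90, 1220, 187 and 389 cochlear and 253, 1957, 909 and 480 vestibular cells. All 8 members tested were called, 6 higher in the cochlea (Bmp2, Bmp4, Id1, Id2, Id3 and Id4) and 2 lower (Bmp6 and Bmp7), and the ranges of the organs did not overlap for any of the 8. Among all 10086 genes tested, 12.9% were called higher and 12.3% lower. The median log2 fold change was 1.13 for the 8 members and −0.00 for all genes. Inhba (36 against 35 UMIs) and Fst (19 against 2 UMIs) had too few UMIs for the test.

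The ligands split. Bmp4 was 149, 173, 182 and 183 CPM in the cochlea against 54.0, 35.6, 45.5 and 44.5 CPM in the vestibule, at 1.68 ± 0.18 (edgeR adjusted p = 5.24e-07). Bmp2 was 32.2, 20.4, 14.2 and 20.7 CPM against 1.50, 9.81, 5.84 and 3.71 CPM, at 1.25 ± 0.33 (edgeR adjusted p = 0.00851), and at 1.91 without vestibular replicate 3. Bmp6 was 5.86, 5.41, 0.592 and 1.94 CPM against 25.5, 31.4, 28.0 and 21.3 CPM, at −3.21 ± 0.36 (edgeR adjusted p = 7.13e-07).
Bmp7 resembled Bmp6, with cochlear values all below vestibular ones. It was 14.6, 7.08, 2.96 and 5.19 CPM against 57.0, 47.8, 43.8 and 40.8 CPM, at −3.22 ± 0.27 (edgeR adjusted p = 2.2e-08). Vestibular Bmp6 came mostly from 1 of the 4 fibrocyte-like clusters, with Lum, Slc7a11 and Igf2, at 48.4 CPM. This cluster (1386 cells) carried 5 of 7 fibrocyte and 4 of 6 fibroblast markers, but Coch, Otos, Otor and Car3 were not among its leading genes, and it lost the name when the members were among the clustering genes. Without it Bmp6 had too few UMIs for the test, so its call could not be tested without this cluster. Bmp4 (2.63, edgeR adjusted p = 4.97e-08), Bmp2 (1.39, 0.0108) and Bmp7 (−2.80, 7.59e-07) kept their calls. Mean Bmp2 and Bmp4 were higher in cochlear fibroblast-like cells, as given above, than in the summed cochlear class. No vestibular cluster had that name, and a fit without the cochlear fibroblast-like cells was not run.

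Id2 showed the widest gap of the Id genes, at 460, 253, 342 and 218 CPM in the cochlea against 10.5, 8.83, 8.17 and 0 CPM, a log2 fold change of 5.08 ± 0.36 (edgeR adjusted p = 2.34e-09). Id1 was 82.0, 102, 154 and 62.9 CPM against 4.50, 9.56, 6.42 and 2.78 CPM, at 3.55 ± 0.33 (edgeR adjusted p = 6.65e-08). Id3, abundant in both organs, was 791, 849, 1149 and 807.5 CPM against 489, 312, 305 and 344 CPM, at 1.01 ± 0.22 (edgeR adjusted p = 0.0013).
The cells behind the cochlear Id2 level were the 3 fibrocyte-like clusters, at 270, 340 and 391 CPM, rather than the fibroblast-like cluster with Scn7a and Ccl11 (699 cells), at 26.0 CPM. No vestibular cluster was named fibroblast-like. Id4 was 38.1, 29.8, 21.3 and 25.9 CPM against 4.50, 19.1, 8.17 and 5.56 CPM, at 0.91 ± 0.33 (edgeR adjusted p = 0.0467), and this call was lost on leaving out cochlear replicate 3 (0.117) or 5 (0.0581) or vestibular replicate 1 (0.0966), 4 (0.142) or 5 (0.126). Without vestibular replicate 3, the highest vestibular library, it was 1.75 (edgeR adjusted p = 6.15e-04). Leaving out the vestibular cluster with Lum gave 4.72 for Id2 (edgeR adjusted p = 1.51e-09), 3.13 for Id1 (3.38e-07), 0.65 for Id3 (0.0453) and 0.52 for Id4 (0.282), the last no longer called.

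In fibrocytes and fibroblasts the pathway list gave 15 genes higher and 4 lower of 28 tested, and of its 8 SMAD and SMAD ligase genes tested 6 were higher and none lower. Bmp5 (30.7 against 0.66 CPM on average, log2 fold change 4.60 ± 0.55), Smad6 (31.0 against 4.12 CPM, 2.65 ± 0.30) and the receptor-regulated Smad9 (17.5 against 2.66 CPM, 2.44 ± 0.35) had the largest increases, with edgeR adjusted p-values of 2.13e-06, 7.91e-07 and 2.01e-05. The co-receptor gene Rgma (25.5 against 42.5 CPM, −1.15 ± 0.21) and the antagonist genes Chrd (7.95 against 14.4 CPM, −1.14 ± 0.26) and Chrdl1 (35.1 against 42.5 CPM, −0.89 ± 0.28) were lower, with edgeR adjusted p-values of 2.79e-04, 0.00237 and 0.0247. Chrdl1 was thus called in opposite directions in SCs and in fibrocytes and fibroblasts, though in the latter its mean CPM lay close together. For SMAD genes the counts were 3 higher and 1 lower of 7 tested in SCs and 0 and 1 of 6 tested in HCs.

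**Figure D5:**
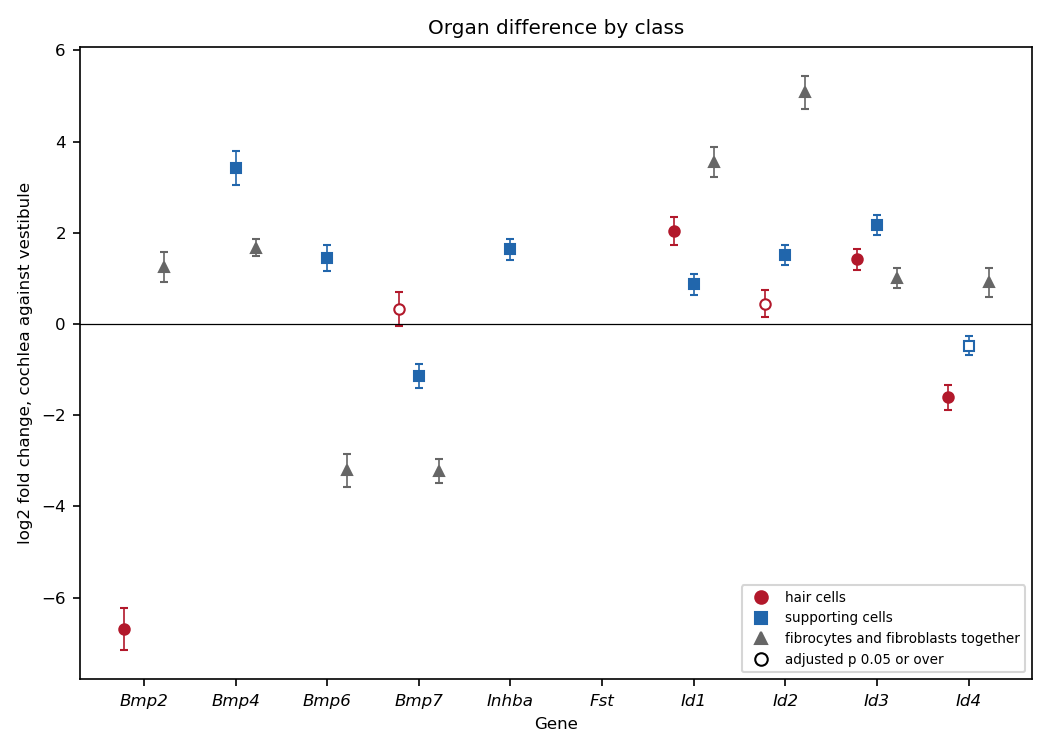
Log2 fold change of cochlea over vestibule (y axis) for each gene tested in HCs, SCs and fibrocytes with fibroblasts, with whiskers of 1 SE. Filled symbols have an edgeR adjusted p under 0.05, and the values run from −6.69 (Bmp2 in HCs) to 5.08 (Id2 in fibrocytes and fibroblasts).

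Genes induced by tissue dissociation were higher in the cochlea in 2 of these classes, as were Id1, Id2 and Id3. The summed level of 8 such genes (Fos, Jun, Junb, Egr1, Atf3, Ier2, Hspa1a and Hspa1b) was 542, 776, 4142 and 794 CPM in cochlear fibrocytes and fibroblasts against 126, 54.9, 107 and 159 CPM in vestibular ones. In SCs it was 439.9, 552, 2172 and 481 CPM against 122, 107, 135 and 114 CPM, and in HCs the organs overlapped, at 117 to 181 and 109.6 to 170.1 CPM, although Jun was called higher (log2 fold change 1.46, edgeR adjusted p = 9.58e-05) and Egr1 lower (adjusted p = 2.63e-05, with no UMI in the cochlear libraries) there. Of the list, 6 of 7 genes tested were higher in cochlear fibrocytes and fibroblasts (all but Hspa1b) and 5 of 5 in cochlear SCs.
Their part in the Id results was not tested. Without cochlear replicate 4, where the list was highest, the edgeR values in fibrocytes and fibroblasts were 3.25 for Id1 (adjusted p = 1.93e-07), 5.01 for Id2 (1.99e-08) and 0.87 for Id3 (0.00469). In SCs they were 0.79 for Id1 (0.0262), 1.56 for Id2 (4.15e-05) and 2.18 for Id3 (1.62e-06). The cochlear libraries left in still held 542 to 794 CPM of the list in fibrocytes and fibroblasts and 439.9 to 552 CPM in SCs. These values lay above every vestibular library of the same class, so leaving out replicate 4 does not remove the organ difference in the list.

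In the other classes 1 or 2 members were abundant enough to test. Id4 was higher in cochlear Reissner or roof epithelium-like cells, at 452, 321, 382 and 445 CPM against 194, 112.5, 171 and 218 CPM, without overlap and at 1.22 ± 0.27 (edgeR adjusted p = 0.0191), from 36, 242, 54 and 41 against 16, 44, 18 and 35 cells. Among the 2826 genes tested there, 1.66% were called higher and 1.88% lower. The call was lost without cochlear replicate 5 (0.0590) or vestibular replicate 3 (0.0866). Id3 was 65.7, 86.5, 120.0 and 172 CPM against 266.5, 155, 128 and 224 CPM in these cells, at −0.82 ± 0.32 (edgeR adjusted p = 0.199), with overlap.
Of 9 pathway genes tested there, 2 E protein genes were lower in the cochlea, Tcf12 (39.4 against 112 CPM on average, −1.35 ± 0.32, edgeR adjusted p = 0.0273) and Tcf4 (209 against 460 CPM, −1.15 ± 0.28, edgeR adjusted p = 0.0305).

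No member was called in immune classes. Id2 in T or NK cell-like cells was 550, 423, 664 and 735 CPM against 323.5, 326 and 249 CPM in vestibular replicates 3, 4 and 5, without overlap, at 0.86 ± 0.27 (edgeR adjusted p = 0.655). Of the 1020 genes tested 0.0% were called in either direction, with 48 at an unadjusted p under 0.05, and DESeq2 called 1. Id2 in macrophage-like cells ran from 28.5 to 447 CPM and from 0 to 117.5 CPM, at 0.93 ± 0.56 (edgeR adjusted p = 0.554), where 0.268% of 2612 genes were called higher and 0.306% lower. Id3 in B cell-like cells was 94.5, 153 and 324 CPM against 0, 219, 91.2 and 294 CPM, at 0.06 ± 0.49 (edgeR adjusted p = 0.989), where 0.338% of 1773 genes were called higher and 1.18% lower.

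Genes with the most similar level pattern were ranked by Pearson's r of log2(CPM + 1) over 41 classes of at least 50 cells, among 16565 genes. The classes share libraries, and r is given as a description. For the ligands the leaders were Esr2 and Myh13 (both 0.83) with Pdzd4 (0.79) for Bmp2, Itih5 (0.86), Scara3 (0.82) and Gm15222 (0.82) for Bmp4, Bdh2 (0.79), Fut2 (0.76) and Frzb (0.75) for Bmp6, 1010001B22Rik (0.81), Fam107a (0.80) and Pkp4 (0.79) for Bmp7, and Upp1 (0.67), Cdc42ep2 (0.65) and Litaf (0.64) for Inhba. For Fst they were Ccn4 (0.72), Gm20125 (0.70) and Gm44946 (0.70).
For the Id genes they were Atoh8 (0.78), Klf5 (0.78) and Egfr (0.76) for Id1, Fos (0.71), Junb (0.69) and Diaph1 (0.66) for Id2, Nr2f2 (0.80), Ntn4 (0.77) and Scara3 (0.77) for Id3, and A330048O09Rik (0.90), G730003C15Rik (0.85) and C2cd4b (0.85) for Id4. A330048O09Rik lies 6386 bases beyond Id4 on GRCm38, and Fos and Junb belong to the dissociation list above. Among the members, the closest pairs were Bmp4 with Id3 (0.71), Bmp6 with Bmp7 (0.69), Bmp7 with Id4 (0.65) and Bmp4 with Fst (0.64).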

How the data were processed

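Gene expression was measured by droplet single-cell RNA-seq (10x Chromium 3′ v3.1) in cochlear and vestibular cells. The deposited files hold UMI counts per gene and cell, made by the authors with Cell Ranger against mm10; their notes name version 6.1.2, whereas the file headers name 5.0.1 for replicates 1 and 2. Strand use in counting is not given in the sources used here.

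Barcodes needed 200 genes, 1000 UMIs and under 25% mitochondrial UMIs to be kept, and were clustered per organ in Seurat 5.3.0 (2000 variable genes without the members and pathway genes, 30 components, resolution 1, alternative 2). Clusters were named from marker lists (at least 3 markers in at least 25% of cells with a log2 fold over 1). Rules for HC subtypes, the HC subclusters set aside, the Reissner comparison, the fit without the vestibular cluster with Lum and the tests of the difference between classes were made after the clusters were seen. Ambient RNA was not subtracted.

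Counts were summed per library and class (at least 5 cells, at least 3 libraries per organ) and tested with edgeR 4.0.16 in R 4.3.3 (TMM factors, filterByExpr, quasi-likelihood, Benjamini-Hochberg adjustment over all genes tested, threshold 0.05). DESeq2 1.42.0 was an alternative. Others were its size factors, no filter, at least 20 cells, resolution 2, a replicate block, members among the clustering genes, replicate 2 in place of 1 and each library left out. Levels, intervals (exact, 95%) and thinning used Python 3.11.15 with scipy 1.17.1, and figures matplotlib 3.10.9.

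The fit was tested on simulated data. In HCs 85.3% of 4-fold and 41.7% of 2-fold changes were recovered, in SCs 100% and 46.7%, and in fibrocytes and fibroblasts 100% and 69.1%. Same-numbered libraries of the organs deviated together in fibrocytes and fibroblasts (correlations 0.106 to 0.169) and in T or NK cell-like cells (0.109 to 0.221), where all correlations passed 0.1. In SCs they were 0.0715 to 0.330 and in HCs 0.0365 to 0.121, all above 0 but not all above 0.1. The main test treated no class as paired, and the replicate number as a block was an alternative in each class. With the block, genes called in SCs went from 2373 to 3031.

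The members, gene lists and rules were chosen with earlier results of these data known. All 10 members are named. Pathway genes are named where called, up to 3 per direction with the largest change, and 3 genes per member for likeness. Marginal or dark cells, melanocytes, endothelial cells, mural cells, glia and granulocytes lacked the cells for a comparison of organs.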

Additional observations from a re-analysis of the deposited data

Results flagged for a closer look

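The organ difference of several members differed between classes, by a test of the interaction of organ and class with the library as a block (edgeR, Benjamini-Hochberg adjusted over all genes, added after the data were seen). Between SCs and fibrocytes with fibroblasts, 30.2% of 10462 genes differed. There the log2 difference of differences was 1.64 for Bmp4 (adjusted p = 0.00195), 4.43 for Bmp6 (4.46e-13), 1.90 for Bmp7 (6.85e-06), −2.70 for Id1 (4.23e-10), −3.56 for Id2 (2.32e-12), 1.17 for Id3 (2.31e-04) and −1.49 for Id4 (9.40e-05). Values are given for members tested in both classes alone. Of the others, Bmp2 (−7.54, edgeR adjusted p = 1.35e-10) and Inhba (1.84, 5.80e-04) also differed here. Each had too few UMIs for the test in 1 of the classes, and Bmp2 in vestibular SCs overlapped its level in macrophage-like cells. Bmp6 thus had opposite signs in the 2 classes, higher in cochlear SCs and lower in cochlear fibrocytes and fibroblasts. In the latter, vestibular Bmp6 came mostly from the cluster with Lum, and the call could not be tested without it.

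Between SCs and HCs, 23.1% of 9847 genes differed. The values were −1.59 for Bmp7 (edgeR adjusted p = 0.00460), −1.05 for Id1 (0.00357), 1.02 for Id2 (0.00504), 0.76 for Id3 (0.0145) and 1.14 for Id4 (3.00e-05). Between HCs and fibrocytes with fibroblasts, 25.8% of 11517 genes differed, with −7.91 for Bmp2 (2.24e-21), 3.50 for Bmp7 (4.70e-08), −1.45 for Id1 (4.33e-04), −4.47 for Id2 (2.93e-19) and −2.62 for Id4 (9.77e-11), and 5.84 (1.38e-05) for Bmp6, which had too few UMIs in HCs alone. The HC side of the Id1 and Id3 values rests on inner HC-like cells, as given above.

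Of 54 groups (member, class and organ), those of 4 libraries were examined, as cochlear B cell-like and vestibular T or NK cell-like cells had 3 libraries. In 7 of the groups of 4, 1 library stood far from the rest, and chance gives about 1 in 20. These were Bmp2 in cochlear HCs at 6.58 CPM in replicate 3 (0 in the others) and Id3 in vestibular HCs at 80.6 CPM in replicate 4 (53.5 to 57.3). The Bmp2 value is 3 UMIs in the largest cochlear HC library, and with the others at 0 any UMI would stand apart. In vestibular SCs they were Bmp6 at 87.1 CPM and Bmp7 at 87.1 CPM, both in replicate 1 (48.2 to 51.8 and 66.5 to 67.3 in the others), and Id3 at 243 CPM in replicate 5 (162 to 173). In cochlear SCs Id4 was 343 CPM in replicate 1 (196 to 214), and in cochlear fibrocytes and fibroblasts Id3 was 1149 CPM in replicate 4 (791 to 849), the library with the highest dissociation-gene level.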

How the results depend on the processing

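Of the members' log2 fold changes under each alternative, 417 kept direction and side of the threshold, 13 lost the call, 3 gained it and 8 changed sign. Signs changed for Id1 (−0.30) and Id2 (−0.53) in HCs without inner HC-like cells, and for Id3 in B cell-like cells, at −0.0028 with DESeq2 size factors, −0.14 without the filter, −0.065 with the replicate block, −0.16 without cochlear replicate 5 and −0.11 and −0.23 without vestibular replicates 1 and 4 (up to 0.38 without vestibular replicate 5). Genes called numbered 2359 in HCs, 2373 in SCs and 2539 in fibrocytes and fibroblasts, and 15, 27, 0 and 100 in macrophage-like, B cell-like, T or NK cell-like and Reissner or roof epithelium-like cells. Without the filter they were 3583 (SCs), 3824 (fibrocytes and fibroblasts), 168, 112, 25 and 399. The replicate block gave 8 for macrophage-like and 4 for T or NK cell-like cells, moved the counts in SCs to 3031, in fibrocytes and fibroblasts to 2959 and in Reissner cells to 84, and among members changed the SC call of Id4 (−0.49) and no other call. At least 20 cells gave 46 for macrophage-like and 63 for Reissner cells, resolution 2 gave 9 for macrophage-like cells, and DESeq2 gave 15 for B cell-like and 1 for T or NK cell-like cells. Leaving out 1 library gave 1946 to 2753 genes in HCs, 1856 to 3032 in SCs, 2127 to 3049 in fibrocytes and fibroblasts, 1 to 56 in macrophage-like, 0 to 103 in B cell-like, 0 to 4 in T or NK cell-like and 61 to 210 in Reissner cells. With the HCs set aside included, 3346 genes were called in HCs, and Bmp6 (4.79), Inhba (3.12) and Id2 (1.75) passed as well. The Id4 call in fibrocytes and fibroblasts was lost with replicate 2 for 1 (0.0533), resolution 2 (0.0633), members among the clustering genes (0.281) and the vestibular cluster with Lum left out (0.282; 2196 genes called), and in Reissner cells with at least 20 cells (0.115). Of the highest levels, 1 gave way, Inhba in cochlear SCs (12.9% of cells after thinning). The minimum of 20 cells left too few libraries for B cell-like and T or NK cell-like cells. The causes were not tested.

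Cochlear HCs (771670 UMIs) limit what can be seen: 4 members were not tested there, and levels of inner HC-like cells come from 2 libraries. Shares of cells carry counting error only, and free RNA sets a floor under them. A class holds different cells in each organ, which cannot be told apart from regulation, and replicate 3 holds most cells of each organ.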
